A study of Mus musculus with 6 samples.

Results

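Expression of 10 genes of intestinal mucus was followed in jejunal intestinal epithelial cells (IEC) of control mice and of mice labelled as deleted for Hdac1 and Hdac2. The genes were the membrane-bound mucins Muc1, Muc4, Muc13 and Dpcr1, the gel-forming mucin Muc2, the goblet cell proteins Tff3, Fcgbp and Zg16, the mucin folding factor Agr2 and the transcription factor Spdef. They were taken by symbol from a table of 19616 genes, all 10 were present, and all 10 passed the filter on low counts that left 15618 genes for testing. Of the 10 genes, 2 were increased (Dpcr1 and Muc1) and 2 were decreased (Tff3 and Zg16) in Hdac1/2-deleted IEC, and 6 were not called. Of all tested genes, 12.4% were called increased and 12.7% decreased.

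RNA was sequenced from IEC that were enriched from the jejunum with EDTA, with 1 library per mouse. The 3 control mice (C1, C3 and C3-3) were wild-type, and the 3 Hdac1/2-deleted mice (H1, H5 and H9) were villin-Cre Hdac1-/-; Hdac2-/-, in which Cre is made under the villin promoter and removes floxed Hdac1 and Hdac2 alleles in intestinal epithelium. All mice were 3 months old, on a mixed C57BL/6J x 129SV x CD1 background, and untreated as far as the labels say. Hdac1 and Hdac2 encode class I histone deacetylases, which remove acetyl groups from histones and other proteins.

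Goblet cells are the mucus-secreting cells of the gut lining. They fold and glycosylate large mucins, store them in granules and release them into the lumen together with trefoil peptides, lectins and other mucus proteins. Enterocytes carry another kind of mucin, anchored in the brush border membrane, which forms the glycocalyx. Goblet cells arise with Paneth, enteroendocrine and tuft cells from secretory progenitors.

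Library totals ran from 36111035 reads in H5 to 65902344 in C1. Levels below are CPM, the share of a library's reads on a gene scaled to a common total with edgeR's TMM factor, as mean ± SD (n = 3 mice per group), and 3 counts correspond to 0.0405 to 0.0790 CPM. Calls were made with edgeR's quasi-likelihood test and needed both a 2-fold change and a Benjamini-Hochberg adjusted p no higher than 0.05. On that rule 12.4% of all tested genes were increased and 12.7% decreased. Hdac1 was 40.8 ± 7.32 CPM in control IEC and 3.77 ± 1.15 CPM in Hdac1/2-deleted IEC (log2 fold change -3.43, adjusted p = 2.9e-05). Hdac2 was 27.7 ± 4.71 and 24.5 ± 2.70 CPM (log2 fold change -0.18, adjusted p = 0.438). Which exons the Hdac2 deletion removes is not given in the sources used here, so this whole-gene count is no check of it. C3 was the library with 3082 counts on 4 Y-linked genes, against 1 to 13 counts in each of the other mice, and no call on the 10 genes changed without it.

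**Figure D1:**
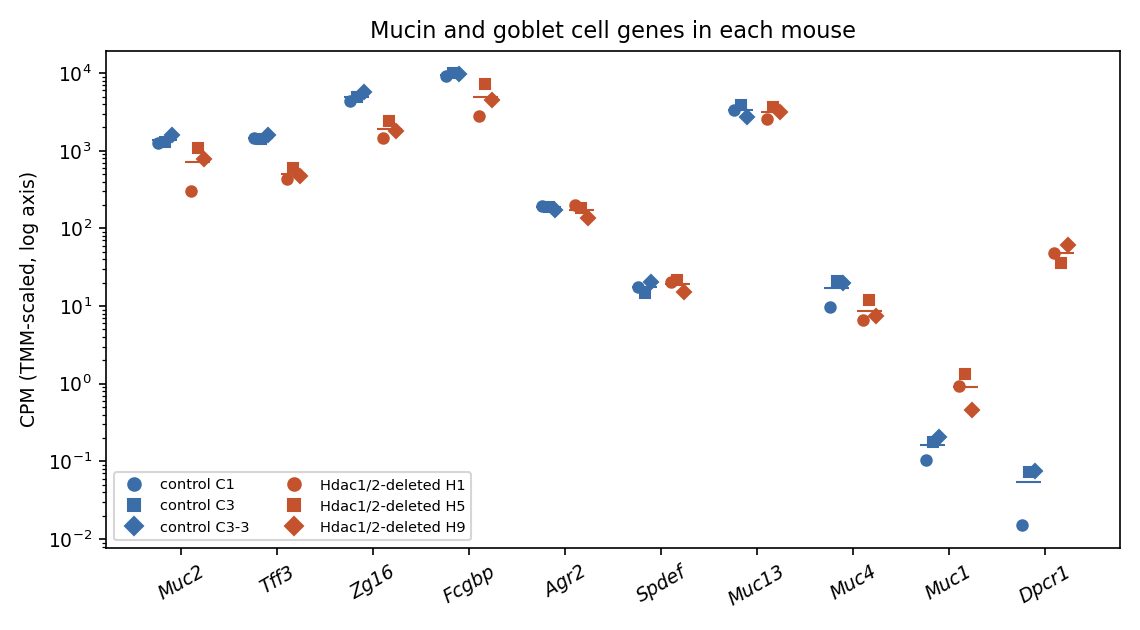
Level of each of the 10 genes in each mouse, in CPM on a log axis, with a short line at each group's mean. Dpcr1 lies at or below 0.0752 CPM in the control mice and between 36.4 and 60.8 CPM in the Hdac1/2-deleted mice, while Tff3 and Zg16 are lower in all 3 Hdac1/2-deleted mice than in any control mouse.

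Among the membrane-bound mucins, Dpcr1 and Muc1 rose and the abundant Muc13 was not called. Dpcr1, a mucin-like membrane protein that the current annotation names Mucl3 (ENSMUSG00000073408, chr17:35635752-35643695, minus strand, GRCm38), was 0.0151, 0.0720 and 0.0752 CPM in C1, C3 and C3-3 and 48.7, 36.4 and 60.8 CPM in H1, H5 and H9. The levels stand for 1, 4 and 4 reads against 3609, 1383 and 3744 reads, so the gene was barely detected in control IEC and every Hdac1/2-deleted mouse stood far above every control mouse. The log2 fold change was 9.82 (SE 0.40, 95% interval 8.90 to 10.7, adjusted p = 2.11e-06). Because the control level rests on 9 reads in all, the size of the change is better given as the ratio of the pooled counts per library size, 978 with an exact counting interval from 515 to 2140 that covers counting error only.

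Muc1, a transmembrane mucin of many epithelia (ENSMUSG00000042784, chr3:89229057-89233381, plus strand), was 0.106, 0.180 and 0.207 CPM in the control mice and 0.931, 1.32 and 0.455 CPM in H1, H5 and H9. The groups did not overlap, and the lowest Hdac1/2-deleted mouse, H9, had 28 reads against 7 to 11 reads in the control mice. Muc1 rose by 2.44 on the log2 scale (SE 0.53, adjusted p = 0.00571), and the ratio of pooled counts was 5.29 (counting interval 3.51 to 8.23). Muc1 stayed a rare transcript in both groups, at 0.164 ± 0.0525 CPM in control IEC and 0.901 ± 0.431 CPM in Hdac1/2-deleted IEC.

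Muc13, the main transmembrane mucin of these libraries (ENSMUSG00000022824, chr16:33794037-33819934, plus strand), was 3350, 3938 and 2721 CPM in the control mice and 2568, 3688 and 3201 CPM in the Hdac1/2-deleted mice. The groups overlapped over most of their range. The log2 fold change was -0.08 (95% interval -0.57 to 0.41, adjusted p = 0.79), and it turned to 0.10 with scaling by library totals alone. That interval lies inside 2-fold in both directions. An antisense gene that shares 184 exon bases with Muc13 had 5 to 12 reads.

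Muc4, a very large transmembrane mucin (ENSMUSG00000079620, chr16:32735886-32782391, plus strand), was 9.83, 21.2 and 19.9 CPM in the control mice and 6.61, 11.9 and 7.48 CPM in the Hdac1/2-deleted mice. H5 lay above C1, so the groups overlapped. Its log2 fold change of -0.97 (SE 0.33, adjusted p = 0.0446) passed the adjusted p limit and not the 2-fold limit. Without C1 it was -1.24 (adjusted p = 0.00655) and without H5 -1.26 (adjusted p = 0.0292), both called, while without each of the other mice the adjusted p was 0.129 to 0.144. Muc20 on the opposite strand shares 627 exon bases with Muc4 and had 0 to 5 reads per mouse.

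The promoters of the 2 increased mucins, Dpcr1 and Muc1, and of the goblet cell products Muc2 and Fcgbp are shown to place the groups side by side. Sequences are from RefSeq on GRCm38.p6, which held a window for 8 of the 10 genes, not for Tff3 and Zg16. Each line gives the 250 bases before the transcription start, 5′ to 3′ on the gene's strand. They lie at chr17:35643696-35643945 (Dpcr1, minus strand), chr3:89228806-89229055 (Muc1, plus), chr7:141690090-141690339 (Muc2, plus) and chr7:28070986-28071235 (Fcgbp, plus). Capitals mark matches on either strand to the motifs named after the sequences, and in Dpcr1 the TATAA of both strands overlap.
Dpcr1: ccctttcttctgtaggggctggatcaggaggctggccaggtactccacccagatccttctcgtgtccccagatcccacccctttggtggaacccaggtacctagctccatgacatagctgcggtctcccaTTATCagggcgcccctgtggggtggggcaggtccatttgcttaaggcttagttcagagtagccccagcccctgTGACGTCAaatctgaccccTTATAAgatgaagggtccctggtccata
Muc1: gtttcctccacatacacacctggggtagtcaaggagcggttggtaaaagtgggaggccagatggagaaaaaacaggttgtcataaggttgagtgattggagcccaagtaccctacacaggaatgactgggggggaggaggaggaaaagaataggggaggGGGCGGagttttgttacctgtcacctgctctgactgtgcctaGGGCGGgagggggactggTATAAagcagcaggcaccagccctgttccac
Muc2: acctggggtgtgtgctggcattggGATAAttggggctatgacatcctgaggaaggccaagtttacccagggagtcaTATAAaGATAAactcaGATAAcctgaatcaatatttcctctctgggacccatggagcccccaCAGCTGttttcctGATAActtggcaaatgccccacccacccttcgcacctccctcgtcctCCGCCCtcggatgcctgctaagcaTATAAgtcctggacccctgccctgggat
Fcgbp: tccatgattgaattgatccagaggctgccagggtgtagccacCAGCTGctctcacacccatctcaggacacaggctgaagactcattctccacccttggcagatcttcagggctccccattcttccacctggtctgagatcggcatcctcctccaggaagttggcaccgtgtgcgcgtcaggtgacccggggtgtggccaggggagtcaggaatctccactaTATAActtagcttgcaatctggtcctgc

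All 4 promoters hold TATAA close to the start, beginning 27 to 31 bases before it, where a TATA box is usually found. Of the genes not shown, Spdef holds it 27 and 28 bases before its start and Muc4 36 and 46 bases before, and neither was called. Those letters stand somewhere in 24.9% of 32851 mouse promoter windows of 300 bases. Dpcr1 alone among the 8 genes with a window holds TGACGTCA, the full cAMP response element, 47 bases before the start, and 1.79% of all windows hold it. Muc1 has GGGCGG, a GC box, at 2 places and Muc2 at 1 (35.7% of windows). CAGCTG, an E-box, stands in Muc2 and Fcgbp (16.3% of windows). GATAA, the core bound by GATA factors, stands at 4 places in Muc2 and 1 in Dpcr1 (25.4% of windows). TTCNNNGAA, a STAT element, was also searched and matched Muc13 alone of the 8 genes, 140 bases before its first start (8.3% of windows). These are matches of letters and no measure of binding.

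**Figure D2:**
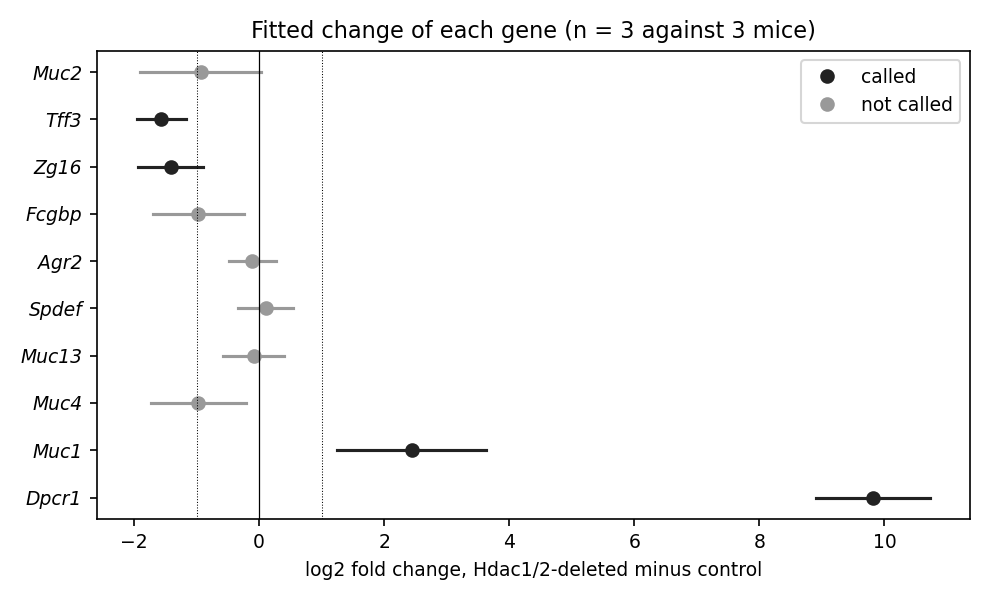
Fitted log2 fold change of each gene (Hdac1/2-deleted minus control) with its 95% interval. Black points passed the adjusted p limit of 0.05 and the 2-fold limit (dotted lines), and grey points did not. Dpcr1 stands at 9.82, Tff3 at -1.56 and Zg16 at -1.41, while Agr2, Spdef and Muc13 lie within 0.11 of 0.

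The secreted products of goblet cells were lower in every Hdac1/2-deleted mouse than in any control mouse, and 2 of the 4 were called decreased. For comparison, 53.2% of all tested genes did not overlap between groups in either direction, and 12.7% were called decreased. Summed over Tff3, Fcgbp and Zg16, the level was 14899 to 17146 CPM in control IEC and 4730 to 10334 CPM in Hdac1/2-deleted IEC. Tff3, a trefoil peptide secreted with mucin (ENSMUSG00000024029, chr17:31125306-31129646, minus strand), was 1458, 1406 and 1586 CPM in the control mice and 438, 592 and 475 CPM in H1, H5 and H9. It was the tightest of the decreases, with little spread in either group (1483 ± 92.6 against 502 ± 80.8 CPM). Tff3 changed by -1.56 on the log2 scale (SE 0.17, adjusted p = 0.000198), and this stayed between -1.70 and -1.47 with each mouse left out.

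Zg16, a lectin-like mucus protein that binds bacterial cell walls (ENSMUSG00000049350, chr7:127050156-127087328, minus strand), was 4356, 4896 and 5764 CPM in the control mice and 1485, 2395 and 1777 CPM in the Hdac1/2-deleted mice. The highest Hdac1/2-deleted mouse, H5, was well below the lowest control mouse. On the log2 scale Zg16 changed by -1.41 (SE 0.23, adjusted p = 0.00139), from -1.61 to -1.26 with each mouse left out.

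Fcgbp, an Fc-binding protein of the mucus gel (ENSMUSG00000047730, chr7:28071236-28120862, plus strand), was 9086, 9956 and 9796 CPM in the control mice and 2808, 7347 and 4534 CPM in the Hdac1/2-deleted mice. The control mice were close together, whereas H1 and H5 differed widely (9612 ± 463 against 4896 ± 2291 CPM). The log2 fold change of -0.97 (SE 0.32, adjusted p = 0.038) missed the 2-fold limit. It was called with limma-voom (-1.06, adjusted p = 0.0292) and without H5 (-1.38, adjusted p = 0.00968), and without any of the other mice its adjusted p was 0.0597 to 0.106.

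Muc2, which builds the mucus gel (ENSMUSG00000025515, chr7:141690340-141754693, plus strand), was 1267, 1296 and 1606 CPM in the control mice and 303, 1097 and 781 CPM in H1, H5 and H9. All Hdac1/2-deleted mice were lower, but H5 was near C1 while H1 was far below. The means were 1389 ± 188 and 727 ± 400 CPM. The log2 fold change was -0.94 (SE 0.41, 95% interval -1.90 to 0.03, adjusted p = 0.111) and was not called. Without H5 it was called, at -1.35 (adjusted p = 0.0383), and without H1 it was -0.56 (adjusted p = 0.0852).

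The 2 genes that act on goblet cell products inside the cell, Agr2 and Spdef, were not called, and their groups overlapped. Agr2, a protein disulfide isomerase of the endoplasmic reticulum needed for mucin folding (ENSMUSG00000020581, chr12:35992907-36004087, plus strand), was 195, 189 and 175 CPM in the control mice and 198, 185 and 137 CPM in the Hdac1/2-deleted mice. Its log2 fold change was -0.10 (95% interval -0.47 to 0.27, adjusted p = 0.642) and 0.091 when scaled by library totals only. Spdef, an ETS transcription factor of goblet cell maturation (ENSMUSG00000024215, chr17:27714352-27728955, minus strand), was 17.5, 14.9 and 20.4 CPM in the control mice and 20.2, 21.7 and 15.1 CPM in the Hdac1/2-deleted mice. Its log2 fold change was 0.11 (95% interval -0.33 to 0.55, adjusted p = 0.691). Both intervals lie inside 2-fold.

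Of the 10 genes, 4 were called in either direction, where 25.2% of all tested genes were, and the levels of the groups did not overlap for 6 (2 higher, 4 lower), where 53.2% of all tested genes did not. The median log2 fold change was -0.52 over the 10 genes and -0.0081 over all tested genes. The number of non-overlapping genes was close to the background share.

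**Figure D3:**
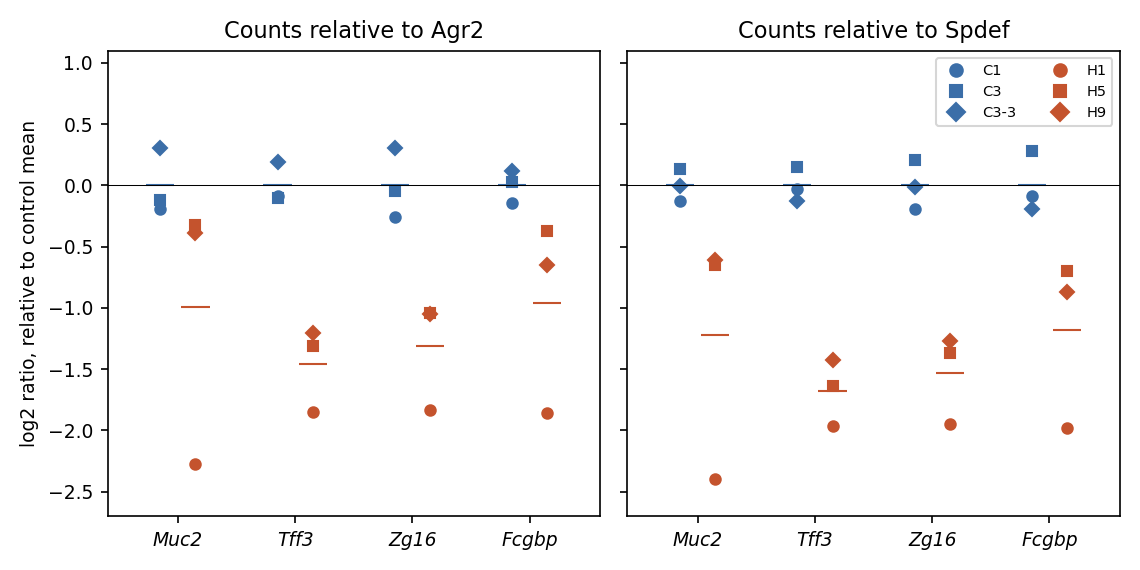
Log2 ratio of the counts of Muc2, Tff3, Zg16 and Fcgbp to those of Agr2 (left) and Spdef (right) in each mouse, set to 0 at the control mean, with a short line at each group's mean. The 3 Hdac1/2-deleted mice lie below the 3 control mice in all 8 ratios, and H1 lies lowest in each.

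Set against Agr2 or Spdef of the same library, which no library scaling affects, the secreted products were lower. Agr2 and Spdef were not called, so these ratios largely repeat the decreases given above and are no separate support for them. The log2 ratio of Tff3 to Agr2 was 2.91, 2.89 and 3.18 in the control mice and 1.15, 1.68 and 1.79 in H1, H5 and H9, a difference of -1.45, and that of Tff3 to Spdef differed by -1.68. The ratio of Zg16 to Agr2 differed by -1.31, that of Fcgbp to Agr2 by -0.96 and that of Muc2 to Agr2 by -0.99. None of these 8 ratios to Agr2 or Spdef overlapped between groups, but an exact two-sided permutation test of 3 mice against 3 cannot go below 0.1, which each of the 8 reached (0.15 after Benjamini-Hochberg adjustment over 12 ratios). In this bulk RNA, fewer goblet cells and less of these transcripts per goblet cell cannot be told apart, also in ratios to genes that other cells express.

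The secreted products did not move as 1 block within each mouse. In H1 Muc2 was low relative to the others, with a log2 ratio of Tff3 to Muc2 of 0.532 against -0.888 in H5 and -0.717 in H9, around control values of 0.202, 0.118 and -0.018. The ratio of Fcgbp to Muc2 was 2.84, 2.94 and 2.61 in the control mice and 3.21, 2.74 and 2.54 in the Hdac1/2-deleted mice, a difference of 0.03 with overlapping groups (exact permutation p = 1). The ratios of Zg16 to Muc2 (-0.31, exact permutation p = 0.4), Tff3 to Muc2 (-0.46, exact permutation p = 0.4) and Zg16 to Tff3 (0.15, exact permutation p = 0.3) overlapped between groups too.

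Levels can be ranked between genes only per length, as RPKM, the CPM divided by the exon length in kilobases in GENCODE. In control IEC the order was Zg16 at 3982 ± 565 RPKM, Tff3 at 3008 ± 188, Muc13 at 1098 ± 200, Fcgbp at 916 ± 44.1, Muc2 at 195 ± 26.3 and Agr2 at 144 ± 7.97. Muc13 and Fcgbp overlapped between mice and the other neighbours in this order did not. Spdef at 7.65 ± 1.19, Muc4 at 1.44 ± 0.529, Muc1 at 0.0700 ± 0.0224 and Dpcr1 at 0.0207 ± 0.0130 RPKM followed, none overlapping with the next.

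In Hdac1/2-deleted IEC the order of the means differed. Dpcr1 moved from the last place to 18.6 ± 4.68 RPKM, above Spdef (8.25 ± 1.51), Muc4 (0.737 ± 0.241) and Muc1 (0.384 ± 0.184). At the top, Zg16 (1500 ± 370), Muc13 (1038 ± 185) and Tff3 (1018 ± 164 RPKM) overlapped, and Fcgbp followed at 466 ± 218. Agr2 (134 ± 24.6) and Muc2 (102 ± 56.1 RPKM) overlapped as well.

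**Figure D4:**
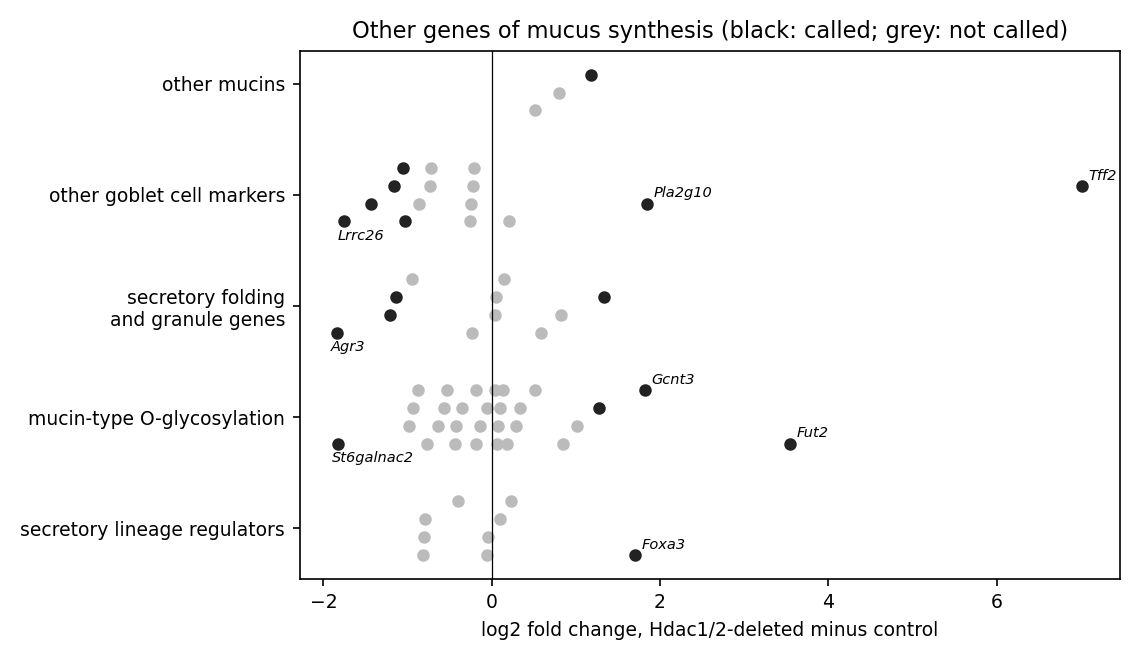
Log2 fold change (Hdac1/2-deleted minus control) of the other tested genes of mucus synthesis and secretion, by list, with called genes in black and the rest in grey. Tff2 lies at 7.02 and Fut2 at 3.55. Of the other goblet cell markers 5 were called decreased, and further ones lie below 0 without a call.

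Among 15 other goblet cell markers tested, decreases were called for 5 and increases for 2 (median log2 fold change -0.72), where 12.7% and 12.4% of all tested genes were called. Lrrc26, a potassium channel subunit, fell from 22.1 ± 1.51 to 6.57 ± 0.983 CPM (-1.75, adjusted p = 0.000119), followed by Ramp1 (-1.43, adjusted p = 0.00131), Sytl2, which docks secretory granules (-1.16, adjusted p = 0.00207), Spink4 (-1.05, adjusted p = 0.00119) and Capn9 (-1.02, adjusted p = 0.00134). Scaling by library totals only gave 2 decreases and 2 increases, and leaving out C1 gave 3 decreases and 2 increases. Dropping the 2-fold limit gave 7 decreases and 2 increases. The most abundant of these markers, the mucus protease Clca1, was 1866 ± 94.5 and 1601 ± 359 CPM (-0.22, adjusted p = 0.409), and Guca2a (-0.72, adjusted p = 0.198) and Scin (-0.25, adjusted p = 0.377) were not called either.

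The 2 increases were Tff2 and Pla2g10. Tff2, the trefoil peptide of gastric mucous neck cells, had 3, 6 and 1 reads in the control mice and 256, 419 and 534 reads in H1, H5 and H9. It was thus near the limit of detection in control IEC and clearly present in each Hdac1/2-deleted mouse (0.0574 ± 0.0458 against 7.72 ± 3.88 CPM, log2 fold change 7.02, adjusted p = 9.35e-05). Its ratio of pooled counts was 122 (counting interval 66.0 to 255). Tff2 lies 11403 bases from Tff3, which fell. Pla2g10, a secreted phospholipase, rose from 4.31 ± 0.542 to 15.5 ± 2.61 CPM (1.85, adjusted p = 0.000205).

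Tff2 was the 1 increased gene of 6 markers of gastric mucous cells in the table. The summed level of those markers was 1.34 to 2.58 CPM in control IEC and 4.66 to 12.4 CPM in Hdac1/2-deleted IEC. Most of the latter was Tff2 itself, at 3.45, 11.0 and 8.68 CPM of sums of 4.66, 12.4 and 9.49 CPM in H1, H5 and H9. Gkn1, Gkn2, Muc5ac and Tff1, the defining genes of the gastric surface, had at most 13 reads in any mouse and were not tested, and C3 was the 1 control mouse with any reads on them. Gkn3, the other tested gene, was 1.68 ± 0.744 and 0.855 ± 0.116 CPM (-0.97, adjusted p = 0.0721).

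Of the other mucins, 7 were in the table and 3 were tested. Muc3, a membrane-bound mucin of enterocytes, was 969 ± 192 and 1387 ± 673 CPM (0.52, adjusted p = 0.32). Muc3a, a neighbour of Muc3 on chromosome 5 that may share reads with it, was 25.7 ± 5.75 and 58.0 ± 28.9 CPM (1.18, adjusted p = 0.0468) with overlapping groups, and this call was lost with limma-voom, with no filter on low counts and without each mouse but H1. Cd164, a sialomucin, was 136 ± 19.3 and 238 ± 8.01 CPM (0.80, adjusted p = 0.00242), under the 2-fold limit. The gastric mucin Muc5ac, Muc16, Muc20 and Emcn had at most 13 reads in any mouse.

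Genes of secretory folding and granules gave 3 decreases and 1 increase among 11 tested (median log2 fold change 0.04). The shares of all tested genes were 12.7% decreased and 12.4% increased. Agr3, the close relative of Agr2 that lies 43171 bases from it, fell from 2.02 ± 0.608 to 0.568 ± 0.123 CPM (-1.84, adjusted p = 0.00374), whereas Agr2 itself was not called. Nlrp6, an inflammasome sensor linked to goblet cell secretion, fell from 382 ± 13.5 to 174 ± 10.9 CPM (-1.13, adjusted p = 0.000259). Creb3l1, a membrane-bound transcription factor of the secretory pathway, rose from 23.4 ± 3.75 to 58.8 ± 15.3 CPM (1.33, adjusted p = 0.00118). Without C3 there were 5 decreases, and by library totals only 2 increases.

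Besides Nlrp6, the genes of that list with a mean of at least 50 CPM were not called. Stxbp2 was 154 ± 34.5 and 272 ± 9.57 CPM (0.82, adjusted p = 0.00653), under the 2-fold limit. The chaperone Hspa5 was 400.0 ± 45.6 and 599 ± 282 CPM (0.58, adjusted p = 0.151), the unfolded protein response factor Xbp1 173 ± 20.2 and 191 ± 76.7 CPM (0.14, adjusted p = 0.691), and the granule fusion protein Vamp8 174 ± 15.7 and 148 ± 15.1 CPM (-0.24, adjusted p = 0.215).

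Mucins are covered with O-linked sugars, which Galnt enzymes start and branching, sulfating, sialylating and fucosylating enzymes extend. In this pathway 29 genes were tested, of which 3 were called increased and 1 decreased (median log2 fold change -0.06). Of all tested genes, 12.4% and 12.7% were. The branching enzyme Gcnt3 rose from 40.6 ± 15.5 to 143 ± 38.1 CPM (1.82, adjusted p = 0.00273), the sialyltransferase St3gal1 rose from 22.8 ± 6.01 to 55.2 ± 22.2 CPM (1.28, adjusted p = 0.0112) and the fucosyltransferase Fut2 from 0.597 ± 0.154 to 7.02 ± 5.52 CPM (3.55, adjusted p = 0.00611). Fut2 had 26 to 43 reads in the control mice, 509 and 479 in H1 and H5 and 97 in H9, so its size of change differed between mice and its groups did not overlap. St6galnac2, another sialyltransferase, fell from 43.3 ± 13.3 to 12.2 ± 5.33 CPM (-1.82, adjusted p = 0.00442). The number of decreases was 2 without C1, C3 or H9.

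Among the abundant enzymes, Galnt6 (510 ± 33.1 and 300.4 ± 8.15 CPM, -0.76, adjusted p = 0.00223), Galnt4 (-0.57, adjusted p = 0.0128) and the sulfotransferases Gal3st1 (-0.87, adjusted p = 0.00196) and Gal3st2 (-0.94, adjusted p = 0.00951) passed the adjusted p limit and not the 2-fold limit. Galnt1 (0.29), Galnt7 (0.08), Galnt10 (0.13), Gcnt4 (0.18), B3gnt3 (-0.35) and B4galnt2 (-0.63, as log2 fold changes) did not pass it. St3gal4 had 103 and 179 reads in C1 and C3 and 41405 in C3-3, against 10195 to 20111 in the Hdac1/2-deleted mice, so control mice differed more from each other than the groups did (adjusted p = 0.977).

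Among 9 regulators of the secretory lineage edgeR's test called 1 increase and 0 decreases (median log2 fold change -0.06). It called 12.4% of all tested genes increased and 12.7% decreased. DESeq2 and limma-voom also called 0 decreases, and 4 of the genes that were lower had an unadjusted p under 0.05. Foxa3, a forkhead factor of goblet cells, rose from 10.9 ± 1.55 to 35.5 ± 0.295 CPM (1.71, adjusted p = 7.41e-05). Klf4 was 227 ± 43.5 and 172 ± 7.78 CPM (-0.40, adjusted p = 0.0843). Atoh1, which commits progenitors to the secretory lineage (-0.81, adjusted p = 0.0258), and Gfi1 (-0.81, adjusted p = 0.0425) passed the adjusted p limit and not the 2-fold limit, and both were picked out after their values were seen. Without H5, 1 regulator was called decreased.

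Genes within 50 kb were read beside each of the 10 genes. Sfta2 overlaps the gene body of Dpcr1 on the opposite strand without sharing exon bases, and it rose with Dpcr1 from 0.0101 to 0.361 CPM (log2 fold change 4.75, adjusted p = 0.00173), resting on at most 24 reads in a mouse. It was the 1 called gene of 4 tested near Dpcr1. Near Muc1, 11 genes were tested, with 2 increases and 3 decreases, and Trim46, 796 bases away, rose from 2.08 to 11.0 CPM (2.39, adjusted p = 0.00128). Near Zg16, 1 of 7 was increased, near Fcgbp 1 of 3 and near Muc4 the 1 tested gene was decreased. Near Tff3 1 of 2 was increased and near Agr2 1 of 2 was decreased. Near Muc13 and Spdef 0 of 2 each were called, and near Muc2 0 genes were tested. The share called in either direction was 25.2% of all tested genes, and shared regulation of neighbours was not tested.

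Markers of other cell types were compared because a bulk sample of EDTA-enriched cells holds several. Beside the counts below stand the 12.4% of all tested genes called increased and the 12.7% called decreased. All 6 Paneth cell markers were decreased, with a summed level of 3281 to 5263 CPM in control IEC and 180 to 279 CPM in Hdac1/2-deleted IEC. Of 6 enterocyte markers 1 was increased and 3 were decreased (17050 to 22418 and 10307 to 12583 CPM), and the increase was lost without C1, C3-3, H1 or H5. Of 6 tuft cell markers 1 was increased and 4 decreased (17.7 to 38.8 and 25.5 to 32.8 CPM), and of 6 enteroendocrine markers 1 was increased and 1 decreased (617 to 688 and 1055 to 1459 CPM). Epithelial markers summed to 8269 to 9728 and 7327 to 8800 CPM, with 1 of 6 increased, a call that was lost without C3 or H5. The 6 Paneth and 3 enterocyte decreases stood in the same mice as those of Tff3 and Zg16, and the part of these lists in the results on mucus genes was not tested.

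Markers of cells outside the epithelium were present at low levels in both groups. T cell and leukocyte markers summed to 61.4 to 197 CPM in control IEC and 41.8 to 79.1 CPM in Hdac1/2-deleted IEC, with 2 of 6 decreased and overlapping groups for each, and this number was 6 without C1 and 0 without C3, C3-3, H1 or H5. Stromal markers summed to 4.87 to 24.8 and 4.03 to 9.65 CPM, with 2 of 6 decreased and 1 without C1, H1 or H5. None of the markers of either list was at 0 in every mouse of a group, and their part in the results on mucus genes was not tested.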

How the data were processed

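RNA of EDTA-enriched jejunal IEC from 3 control and 3 Hdac1/2-deleted mice was sequenced as paired-end reads from a directional poly(A) library, with a library for each mouse. Reads were aligned by the authors with STAR (2.4.0f1 in the submitters' processing notes), who deposited raw counts of reads per gene. The counting program, its strand setting and its annotation are not given in the sources used here. The deposited table also holds scaled counts and the authors' own fold changes and p-values, which were not used. Nothing says that the mice came from separate litters. The p-values of edgeR's test set the difference between groups against the spread between mice within groups, estimated across all tested genes. They rest on these 6 mice.

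Counts were filtered with filterByExpr, scaled with TMM and fitted across 15618 genes with edgeR 4.0.16 in R 4.3.3 (robust quasi-likelihood test, prior count 0.125, no covariates), with Benjamini-Hochberg adjustment over all genes tested. A call needed an adjusted p of at most 0.05 and at least a 2-fold change. The SE was derived from the log2 fold change and the F statistic, and 95% intervals use the fit's degrees of freedom. The steps were tested on simulated data. Alternatives used limma 3.58.1, DESeq2 1.42.0, other scalings, filters and limits, and each mouse left out. Figures were drawn with matplotlib 3.10.9 in Python 3.11.15.

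The 10 genes and the other gene lists were chosen with earlier results of these data known. Of the other lists, the genes called or with a mean of at least 50 CPM over the 6 mice are named for mucus genes. Marker lists of other cell types are given by counts and sums, and Trpm5 and Sct are named for their part in a sum. The values of 1 called gene are not reported here. Positions are from GENCODE release 21 (GRCm38) by gene identifier, and promoters from RefSeq (GRCm38.p6) by symbol. The deposited counts carry no coordinates. Total counts of 36111035 to 65902344 per mouse set the precision, and counting intervals cover counting error only.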

Additional observations from a re-analysis of the deposited data

How the results depend on the processing

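Tff3, Zg16, Dpcr1 and Muc1 kept their direction and their call under each of the 10 other settings in which they were tested and with each of 6 mice left out. Dpcr1 and Muc1 had too few reads in control mice to enter the test that required at least 10 counts in every sample, so 0 of the 10 genes were called increased there, against 2. Without the 2-fold limit 4 of the 10 genes were called decreased, and over all genes 3198 were increased and 3168 decreased, against 1944 and 1989. With a mouse left out, 2 to 5 of the 10 genes were called decreased, the 5 without H5, where Muc2, Fcgbp and Muc4 joined. Scaling by library totals only moved the median of all genes from -0.0081 to 0.18 and gave 2463 increased and 1538 decreased genes, and it turned Muc13 to 0.10 and Agr2 to 0.091. With a mouse left out, Muc13 ranged from -0.20 to 0.061 and Agr2 from -0.21 to 0.043, and neither was called. DESeq2 gave Muc2 an adjusted p of 0.0453 at -0.91, still under 2-fold. With edgeR's test the adjusted p of Muc2 was 0.111 with all 6 mice and 0.0383 to 0.239 with a mouse left out. No paired analysis was possible because the mouse names share fewer than 2 numbers between groups. Depth limits Dpcr1, Muc1 and Tff2 in control mice, where they had at most 11 reads.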

Other observations

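Retnlb, a goblet cell protein induced by microbes and parasites, had too few reads in enough mice to pass the main filter on low counts. DESeq2 and the fit with no filter on low counts included it, and each called 3 other goblet cell markers increased, against 2. The number was also 3 without C3 or without H9. Whether Retnlb was the added marker is not reported here. Retnlb had 1, 5 and 2 reads in C1, C3 and C3-3 and 70, 36 and 3 reads in H1, H5 and H9. Thus 2 of the 3 Hdac1/2-deleted mice stood above the control mice and H9 did not. It was picked out after its values were seen. Qprt, which lies 19786 bases from Zg16, was 0.314 CPM in control IEC and 44.4 CPM in Hdac1/2-deleted IEC (log2 fold change 7.16, adjusted p = 0.000106, edgeR), while Zg16 fell. Rubcn, the 1 tested gene within 50 kb of Muc4, fell from 70.1 to 18.6 CPM (-1.91, adjusted p = 8.84e-05).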
